A study of Mus musculus with 12 samples.

Results

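Distal PRDM3-only regions are stretches of the mouse genome where the CUT&RUN library for PRDM3 had a peak and the libraries for PRDM16, NKX2-1 and H3K4me3 had none. They were chosen from the deposited PRDM3 peak list, which came from 1 library with no replicate. A peak was kept if it lay on chromosomes 1 to 19, had a −log10 q of 1.3 or more, and shared no base with any peak of the other 8 libraries. The q is the false discovery rate given by the peak caller, and a −log10 q of 1.3 is a q of about 0.05. Of 52283 deposited PRDM3 peaks, 51128 lay on chromosomes 1 to 19 and 21769 of these passed the q threshold. The rule left 2642 regions, 12.1% of the PRDM3 peaks past the threshold.

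All samples came from wild type C57Bl6 mice at E17.5, late in gestation, with no treatment or altered allele in the labels. Lungs were dissociated and freed of red cells, and epithelial cells were held back on magnetic beads against EpCAM. CUT&RUN, in which a nuclease tethered to an antibody releases the DNA next to the bound protein, was run on 100000 cells a reaction. The groups used here were PRDM3 (1 library, rabbit antibody), PRDM16 (2 libraries, a rabbit antibody in replicate 1 and a sheep antibody in replicate 2), NKX2-1 (3 libraries) and H3K4me3 (3 libraries). Of the 12 samples, 3 were IgG controls (2 from rabbit, 1 from sheep) and are not analysed here, which leaves the regions without a measured background. Whether lungs were pooled, and whether libraries came from separate animals, is not stated in the labels. In such bulk libraries, binding in few cells and weak binding in many cells cannot be told apart.

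PRDM3, encoded by Mecom and also known as EVI1 or MECOM, is a zinc-finger protein with separate groups of fingers that contact DNA, and its closest relative is PRDM16. Both carry a PR domain related to those of histone methyltransferases, and both recruit corepressors such as CtBP proteins. PRDM3 is best known from blood stem cells and from leukaemias that overexpress it. NKX2-1 is the homeodomain factor that specifies lung epithelium, and H3K4me3 marks active promoters. At this stage the distal epithelium is giving rise to alveolar type 1 (AT1) cells, thin cells for gas exchange, and alveolar type 2 (AT2) cells, which make surfactant.

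Few of the regions lay at an annotated transcript start. RefSeq promoter windows, from 250 bases before to 50 bases after a transcript start, were touched by 22 of the 2642 regions (0.833%). Among the other 19127 PRDM3 peaks past the threshold, 27.8% touched one, and among the 4008 of those with 5 fragments at the summit, 9.73% did. The rule itself removed regions over H3K4me3, so this difference is a description. The 22 regions touched 24 windows, 15 of long noncoding RNAs and 9 of protein-coding genes. The noncoding windows of 4933435C09Rik and 9430078K24Rik share a region, as do those of Gm33370 and Gm8013. The share of noncoding RNAs among all windows was not counted, and this split too is a description. In 15 windows the summit, the base with most fragments, also lay inside, and 4 of these were of protein-coding genes. The sequences below are of those 4 protein-coding starts and of the 2 strongest regions at a noncoding RNA start, since these are the places where a PRDM3-only region meets an annotated start. Each is the RefSeq window of GRCm38.p6, the assembly of mm10, on the strand of the gene and 5′ to 3′, with the bases inside the PRDM3 region in capitals.
Gm35576, chr17:15285367-15285666, minus strand: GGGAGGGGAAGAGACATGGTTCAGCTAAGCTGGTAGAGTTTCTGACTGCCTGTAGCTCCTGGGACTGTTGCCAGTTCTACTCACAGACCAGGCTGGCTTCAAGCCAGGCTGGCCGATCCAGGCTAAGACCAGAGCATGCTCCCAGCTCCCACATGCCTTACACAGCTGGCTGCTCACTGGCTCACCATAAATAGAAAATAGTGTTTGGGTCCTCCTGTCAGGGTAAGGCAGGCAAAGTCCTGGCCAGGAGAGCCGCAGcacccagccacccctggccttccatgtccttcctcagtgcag
4933435C09Rik, chr12:79936289-79936588, plus strand: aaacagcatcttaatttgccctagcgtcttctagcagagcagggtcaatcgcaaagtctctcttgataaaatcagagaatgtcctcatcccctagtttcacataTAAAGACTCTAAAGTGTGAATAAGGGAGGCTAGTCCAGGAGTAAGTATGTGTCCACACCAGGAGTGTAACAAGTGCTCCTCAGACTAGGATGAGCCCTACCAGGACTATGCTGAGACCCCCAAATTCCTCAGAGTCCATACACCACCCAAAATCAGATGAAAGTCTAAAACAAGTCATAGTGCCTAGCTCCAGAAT
Arhgef18, chr8:3353187-3353486, plus strand: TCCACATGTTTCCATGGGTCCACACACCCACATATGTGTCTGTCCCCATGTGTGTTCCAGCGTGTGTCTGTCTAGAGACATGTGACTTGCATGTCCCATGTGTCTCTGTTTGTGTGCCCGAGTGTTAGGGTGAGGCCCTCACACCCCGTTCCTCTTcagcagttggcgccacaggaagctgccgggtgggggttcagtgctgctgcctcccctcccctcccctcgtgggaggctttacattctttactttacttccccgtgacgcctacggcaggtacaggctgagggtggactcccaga
Spef2, chr15:9748819-9749118, minus strand: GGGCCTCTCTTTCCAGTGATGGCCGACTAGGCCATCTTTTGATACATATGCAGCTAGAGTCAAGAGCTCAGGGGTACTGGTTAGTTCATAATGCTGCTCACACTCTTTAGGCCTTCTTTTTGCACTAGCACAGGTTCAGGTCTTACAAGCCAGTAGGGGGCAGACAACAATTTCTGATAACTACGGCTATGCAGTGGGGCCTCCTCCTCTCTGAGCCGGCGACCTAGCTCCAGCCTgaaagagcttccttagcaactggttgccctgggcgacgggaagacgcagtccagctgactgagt
Pemt, chr11:60040139-60040438, minus strand: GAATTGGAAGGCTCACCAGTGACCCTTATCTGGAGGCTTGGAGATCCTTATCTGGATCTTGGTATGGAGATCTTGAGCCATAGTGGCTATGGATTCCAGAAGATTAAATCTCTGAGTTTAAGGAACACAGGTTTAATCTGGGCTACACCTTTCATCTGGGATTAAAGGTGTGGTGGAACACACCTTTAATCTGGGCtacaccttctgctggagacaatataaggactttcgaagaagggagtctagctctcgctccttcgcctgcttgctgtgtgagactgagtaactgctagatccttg
Clec14a, chr12:58269209-58269508, minus strand: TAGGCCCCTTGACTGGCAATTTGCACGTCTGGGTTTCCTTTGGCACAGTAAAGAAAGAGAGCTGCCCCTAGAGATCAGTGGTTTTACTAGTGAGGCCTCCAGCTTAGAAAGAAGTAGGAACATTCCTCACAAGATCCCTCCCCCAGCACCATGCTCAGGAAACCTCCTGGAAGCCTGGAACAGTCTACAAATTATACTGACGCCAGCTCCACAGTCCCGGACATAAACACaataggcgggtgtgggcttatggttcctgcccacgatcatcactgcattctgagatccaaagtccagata

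The long noncoding RNA Gm35576 had the highest of these, with a fold enrichment of 6.11 and 8 fragments at a summit 178 bases upstream of the start. The region at 4933435C09Rik had a fold enrichment of 5.89 and 8 fragments, with its summit 35 bases downstream of the start, and ended 20 bases from a PRDM16 peak. All 4 protein-coding starts were at 5 fragments. The nearest peak of another library lay 24 bases from the region at Arhgef18, 109 at Clec14a, 135 at Spef2 and 1801 at Pemt. Arhgef18, which encodes an activator of small GTPases, had a fold enrichment of 4.07 with the summit 210 bases upstream. Spef2, which encodes a protein of the sperm tail and motile cilia, also stood at 4.07, with the summit 145 bases upstream. Pemt, which encodes the methyltransferase that makes phosphatidylcholine from phosphatidylethanolamine, had 3.93 with the summit 157 bases upstream. Clec14a, which encodes a C-type lectin of endothelial cells, had 3.58 with the summit 116 bases upstream.

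The windows were searched on both strands for 8 short motifs, which is a description of letters and not of binding. The first group of PRDM3 fingers can bind AGATAAG, which stood in 1 of the 24 windows, that of Pemt, against 3.04% of all 32851 RefSeq windows. The second group of fingers can bind GAAGATGAG, which stood in 1 window, that of Gm41625, against 0.399% of all windows. Another site of the first group, GACAAGATA, and the ETS site ACAGGAAGT stood in 0 of the 24, against 0.119% and 1.03% of all. CAAGTG, a core bound by NKX2 proteins, stood in 3 windows (13.6% of all), of which those of 4933435C09Rik and 9430078K24Rik overlap on opposite strands and hold the same copy, GGAATG of TEAD factors in 4 (14.7%), TGANTCA of AP-1 in 1 (7.81%) and TGTTTAC of forkhead factors in 1 (3.65%). GACAAGATA and AGATAAG can share bases.

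Most distal PRDM3-only regions were weak peaks, at the smallest number of fragments found among them. Fold enrichment, the authors' ratio of signal to background at the summit, had a median of 4.07 and a range of 2.67 to 7.47 in the 2642 regions, and a median of 4.74 and a highest value of 27.8 in the other PRDM3 peaks past the threshold. The −log10 q ranged from 1.31 to 7.43 with a median of 2.02, against a median of 2.97 in the others. Median length was 312 bases, against 581 bases in the others. These strengths are the readout that chose the regions and are given as a description with no test.

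The deposited fold enrichment and p-value of a peak together give the number of sequenced fragments at its summit. Under the peak caller's usual formulas, a fold enrichment is fragments plus 1 over background plus 1, and the p is a Poisson upper tail. For each of the 2642 regions exactly 1 whole number of fragments gave the deposited −log10 p to within 0.0001. That the formulas apply is read from this fit, since the settings of the peak caller are not given in the sources used here. On this scale 1957 regions, or 74.1% (Wilson 95% interval 72.4% to 75.7%), had 5 fragments, the fewest in any of them. A further 516 (19.5%) had 6 and 130 (4.92%) had 7, which leaves 39 (1.48%) with 8 or more and 10 (0.379%) with 10 or more. In the other PRDM3 peaks past the threshold that could be fitted, 21.0% of 19099 had 5 fragments, 49.1% had 8 or more and 28.3% had 10 or more. All intervals given are over regions or genes and reflect counting error alone.

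Fold enrichment in these regions was thus a scale of few steps. One value, 4.07, was shared by 1112 regions (42.1%), which is 5 fragments over the lowest background in the library, 0.473 fragments. The next most common, 3.93, held 440 regions and also stood for 5 fragments, and 4.75, held by 248 regions, stood for 6. A count of 5 has an exact Poisson 95% interval of 1.62 to 11.7, and a count of 10 one of 4.80 to 18.4. Regions at 5, 6 and 7 fragments therefore cannot be ranked against each other by these values.

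**Figure D1:**
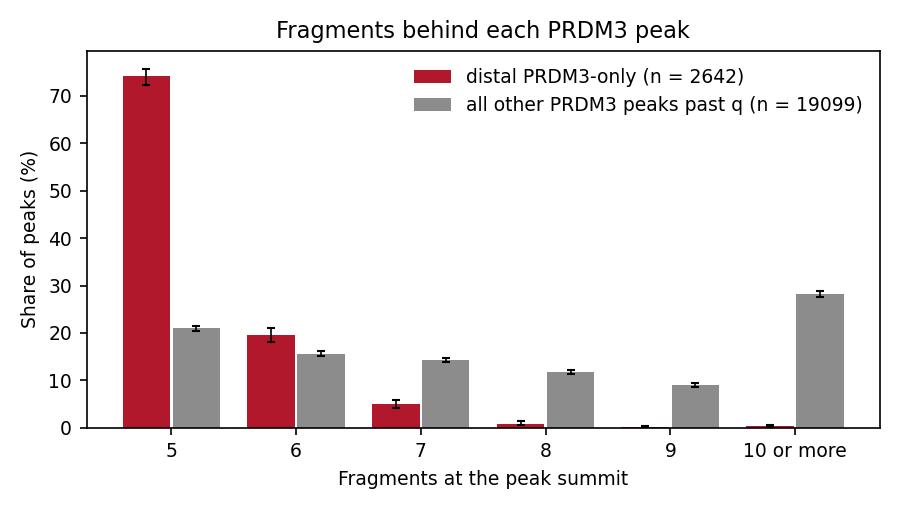
Share of PRDM3 peaks past the q threshold (vertical axis, percent) by the number of fragments at the summit (horizontal axis), for the 2642 distal PRDM3-only regions in red and the 19099 other fitted peaks in grey, with Wilson 95% intervals. Regions with 5 fragments make up 74.1% of the distal PRDM3-only regions and 21.0% of the other peaks.

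Peaks on either side of the threshold had similar strengths. Just inside it, with a −log10 q from 1.3 to 1.5, were 127 regions with a median fold enrichment of 3.58 and a median of 5 fragments. Just outside, from 1.1 to 1.3, were 5213 PRDM3 peaks free of the other libraries in the same way, with a median fold enrichment of 3.39 and a median of 4 fragments. Single peaks just outside had as many fragments or more, such as 1 at a −log10 q of 1.29 with 13 fragments and a fold enrichment of 2.74. In all, 15921 such peaks fell short of the threshold, at a median of 3 fragments.

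The PRDM16 libraries removed more peaks than any other. PRDM16 replicate 1 overlapped 17432 of the 21769 PRDM3 peaks past the threshold and replicate 2 overlapped 15690. NKX2-1 replicates 1, 2 and 3 overlapped 15545, 7716 and 9040, and H3K4me3 replicates 1, 2 and 3 overlapped 10423, 9529 and 9163. PRDM16 replicate 1 was the only library to remove 741 peaks, and PRDM16 replicate 2 the only one to remove 431. For the NKX2-1 libraries these numbers were 187, 45 and 57, and for the H3K4me3 libraries 40, 2 and 0. Absence of a peak is not absence of signal. The lists used to remove peaks held many weak peaks themselves, and 51.6% and 45.4% of the peaks in PRDM16 replicates 1 and 2 had 3 fragments or fewer, as did 13.0%, 85.6% and 83.3% in NKX2-1 replicates 1, 2 and 3. Fragments were not fitted for the H3K4me3 lists.

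Although no region overlapped a peak of another library, many had one close by. The nearest peak of any of the 8 libraries lay within 100 bases of 188 regions (7.12%), within 500 bases of 618 (23.4%) and within 1 kb of 929 (35.2%, 33.4% to 37.0%). It lay within 10 kb of 2374 regions (89.9%), and the median gap was 1.88 kb. A PRDM16 peak lay within 1 kb of 704 regions (26.6%), an NKX2-1 peak of 501 and an H3K4me3 peak of 113 (4.28%). With the libraries of each group pooled, PRDM16 was the most frequent neighbour at 1 kb and NKX2-1 at 10 kb. The pooled shares at 10 kb were 79.8% for NKX2-1 (3 libraries), 74.6% for PRDM16 (2 libraries) and 24.8% for H3K4me3 (3 libraries). Taken singly, PRDM16 replicates 1 and 2 had a peak within 10 kb of 68.1% and 58.7% of the regions. For NKX2-1 replicates 1, 2 and 3 these shares were lower, at 47.4%, 46.6% and 55.3%. The lists also differ in length, and the part of list length or number of libraries in the pooled order was not tested. Median gaps were 3.26 kb to PRDM16, 3.63 kb to NKX2-1 and 36.4 kb to H3K4me3.

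**Figure D2:**
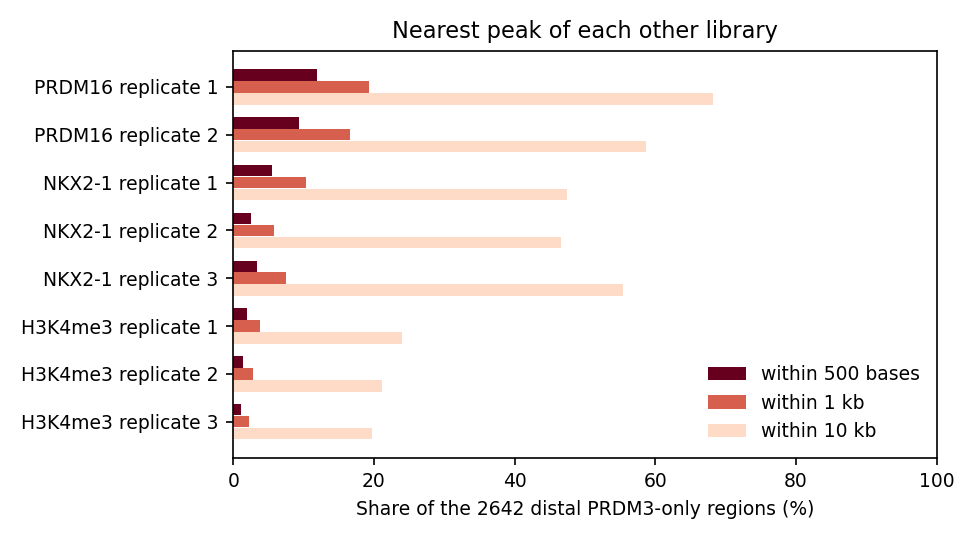
Share of the 2642 distal PRDM3-only regions (horizontal axis, percent) with a peak of each other library (rows) within 500 bases, 1 kb and 10 kb. PRDM16 replicate 1 has a peak within 1 kb of 19.3% of the regions and H3K4me3 replicate 3 of 2.23%.

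The regions lay far from each other. Only 43 pairs of neighbouring regions were within 10 kb, 17 of them within 5 kb. Their number ran from 73 on chromosome 19 to 194 on chromosome 1, and their share of the PRDM3 peaks past the threshold from 10.2% on chromosome 19 to 14.4% on chromosomes 14 and 16.

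Relative to protein-coding genes, the regions were more remote than PRDM3 peaks shared with other factors. The midpoint lay inside a protein-coding gene for 1319 regions (49.9%, 48.0% to 51.8%), and a gene end lay within 50 kb for 1699 (64.3%, 62.5% to 66.1%). For 594 regions (22.5%, 20.9% to 24.1%) the nearest gene end was over 100 kb away, and 561 (21.2%) were neither inside a gene nor within 50 kb of an end. The median distance to a gene end was 26.9 kb. In the other PRDM3 peaks past the threshold 61.2% were inside a gene, 83.3% had an end within 50 kb, 8.41% lay over 100 kb away, and the median was 4.55 kb.

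The other peaks include those over H3K4me3, of which 59.4% had a gene end within 1 kb, so distal peaks of equal strength were set side by side. At 5 fragments, 23.4% of the 1957 distal PRDM3-only regions lay over 100 kb from a gene end (21.5% to 25.3%). The share was 14.8% (12.8% to 17.0%) in the 1110 distal PRDM3 peaks shared with PRDM16 but not NKX2-1, and 14.9% (13.2% to 16.8%) in the 1561 shared with NKX2-1. A gene end lay within 50 kb of 63.3%, 70.8% and 71.7% of the same 3 sets. The share inside a gene was 48.7% (46.5% to 50.9%), 53.1% (50.1% to 56.0%) and 52.0% (49.5% to 54.4%), with intervals that meet. None of these differences was tested, since all regions come from 1 library. Of the 169 regions with 7 or more fragments, 64.5% had a gene end within 50 kb and 21.9% (16.3% to 28.7%) lay over 100 kb from one. At all fragment numbers, PRDM16 peaks past the same threshold and free of PRDM3, NKX2-1 and H3K4me3 peaks lay over 100 kb from a gene end in 12.1% of 14386 in replicate 1 and 14.9% of 8025 in replicate 2.

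**Figure D3:**
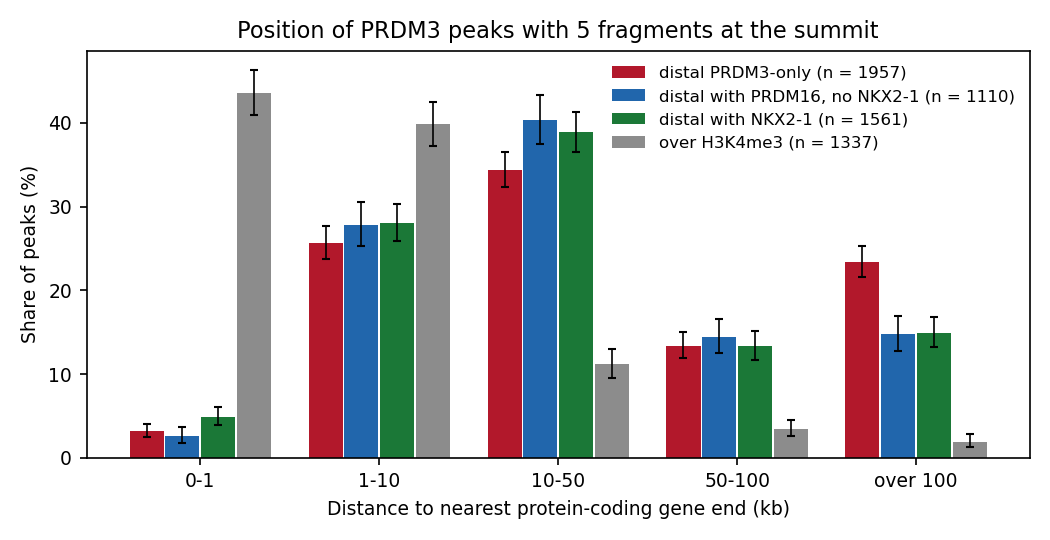
Share of PRDM3 peaks with 5 fragments at the summit (vertical axis, percent) by distance from the midpoint to the nearest protein-coding gene end (horizontal axis, kb), for distal PRDM3-only regions and 3 sets of shared peaks, with Wilson 95% intervals. Beyond 100 kb lie 23.4% of the distal PRDM3-only regions, 14.8% and 14.9% of the distal shared sets and 1.94% of the peaks over H3K4me3.

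The 15 strongest regions by fold enrichment had 8 to 13 fragments, and several lay far from any protein-coding gene. The strongest, chr13:71388481-71388920, had a fold enrichment of 7.47 from 10 fragments and lay 547 kb from the nearest protein-coding gene end, that of the metalloprotease gene Adamts16. The third, chr9:50130883-50131552 (6.79, 9 fragments), lay 332 kb from Ncam1, a neural cell adhesion gene. The nearest peak of another library was an NKX2-1 peak in both cases, 7.57 kb and 15.3 kb away. Of the 15, 6 had a protein-coding gene end within 50 kb, 6 were inside a gene and 7 were neither.

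The 6 near a gene end belonged to genes of varied function. The second strongest region, chr4:140508649-140509034, had a fold enrichment of 6.89 from 10 fragments and lay 5.64 kb past an end of Arhgef10l, which encodes a guanine nucleotide exchange factor. Inside Ppp4r1, which encodes a regulatory subunit of protein phosphatase 4, a region had 6.40 from 9 fragments. Inside Znrf3, which encodes a ubiquitin ligase that removes Wnt receptors, the strongest of 3 regions had 6.16 from 10 fragments and lay 340 bases from a PRDM16 peak. Dock9, which encodes an activator of CDC42, held 1 with 6.11 from 8 fragments. The gene of the adrenergic receptor Adra2c had one at 5.97 and 9 fragments, 45.3 kb upstream of its start. Usf3 held one at 5.96 and 13 fragments.

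Counted by gene, distal PRDM3-only regions were spread thinly. Of 20665 protein-coding genes on chromosomes 1 to 19, 3635 (17.6%) had a region inside or within 50 kb. One region was near 3155 of them, 2 near 411, 3 near 57 and 4 near 12. Long genes had one more often. The share was 11.7% of genes under 10 kb, 16.4% of those of 10 to 50 kb, 25.5% of those of 50 to 200 kb and 42.6% of those of 200 kb or longer. Median gene length was 29.4 kb with a region and 15.8 kb without one, and 155 kb for the 69 genes with 3 or more.

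Many genes near a region carried H3K4me3 at an end. The rule removed regions over H3K4me3, so the mark at these genes is not independent of it and the shares are given as a description. H3K4me3 lay within 1 kb of a gene end in all 3 libraries at 55.1% of protein-coding genes. It did so at 64.9% (63.3% to 66.4%) of genes with a region, against 53.0% of genes without one. Among genes nearest to a region, with an end within 50 kb, the share was 65.7% (63.3% to 68.0%). It was 81.0% (80.2% to 81.8%) among genes nearest to the other PRDM3 peaks, which include those over H3K4me3. Most genes with a distal PRDM3-only region also had a shared PRDM3 peak. Another PRDM3 peak past the threshold lay inside or within 50 kb of 71.3% of all protein-coding genes, and of 85.4% of genes with a distal PRDM3-only region against 68.3% of those without. Genes with a region were also longer (median 29.4 kb against 15.8 kb), and the part of gene length in these shares was not tested.

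No gene had more than 4 regions, and 12 genes tied at that number. Edn1, which encodes endothelin-1, a peptide that constricts vessels, is the shortest of the 12 at 6.52 kb. Its 4 regions had fold enrichments of 4.07, 3.84, 5.43 and 4.07, the third from 7 fragments at 14.9 kb past the gene. Bmp6, which encodes a secreted BMP ligand, had a region 7.26 kb upstream of its start with 21 fragments, the most of any distal PRDM3-only region, a fold enrichment of 5.28 and a −log10 q of 7.43. A PRDM16 peak lay 660 bases from it. Its other 3 regions had 5 fragments each. A further 8 were Dock9, Grip1, Raver2, Cadm1, Nckap5, Tmem178b, Myo10 and Kalrn, which span 83.3 kb (Raver2) to 917 kb (Nckap5). The last 2, Stom (23.0 kb) and 4930568D16Rik (13.5 kb), are neighbours on chromosome 2 and share the same 4 regions. Some regions counted for Bmp6, Grip1, Raver2, Stom and 4930568D16Rik were nearer to an end of another gene. Examples are Txndc5 for a region of Bmp6, Helb for Grip1 and Jak1 for Raver2.

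The genes of both PRDM proteins and of NKX2-1 had regions inside or within 50 kb. Mecom (558 kb) and Prdm16 (321 kb) are long, and 42.6% of all genes of 200 kb or longer had a region. The share was 11.7% of genes under 10 kb, the class of Nkx2-1 (4.97 kb). Mecom, the gene of PRDM3 on chromosome 3, had 3 regions. RefSeq gives it a first start and a second one 497 kb downstream, and the long form with the PR domain is made from the first. One region lay 50.6 kb downstream of the first start, with a fold enrichment of 4.07 from 5 fragments, and ended 24 bases from an NKX2-1 peak. Another lay 364 kb downstream, with 3.93 from 5 fragments and a PRDM16 peak 772 bases away. The last lay 6.80 kb past the gene end, with 4.75 from 6 fragments and a PRDM16 peak 364 bases away. These were minor among the PRDM3 peaks there. In the gene and 60 kb on either side the library had 48 peaks, 23 of them past the threshold, and the strongest, 5.18 kb downstream of the first start, had a fold enrichment of 9.54.

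Prdm16, on chromosome 4, had 2 regions beside 17 other PRDM3 peaks past the threshold. One was inside the gene, with a fold enrichment of 4.07 from 5 fragments, 179 bases from a PRDM16 peak. The other lay 25.5 kb upstream of its start, with 4.58 from 6 fragments, and was nearer to an end of Actrt2. Nkx2-1, on chromosome 12, had 1 region beside 11 other PRDM3 peaks, 41.1 kb past the gene end, with 4.07 from 5 fragments.

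**Figure D4:**
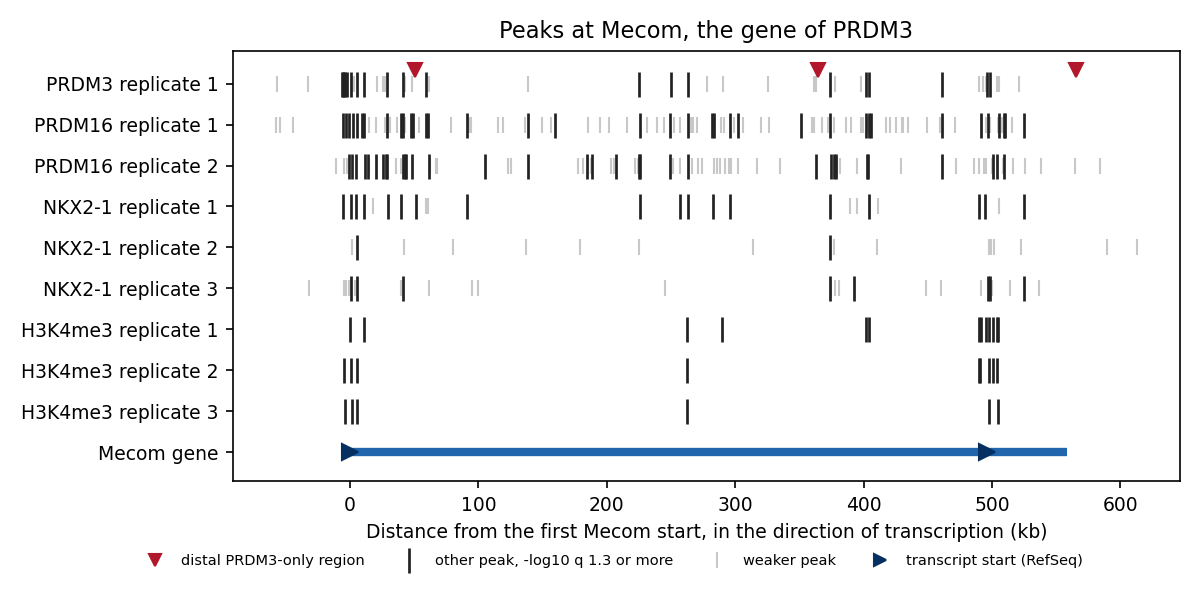
Peaks of the 9 libraries (rows) at Mecom by distance from its first transcript start in the direction of transcription (horizontal axis, kb), with distal PRDM3-only regions as red triangles, other peaks past a −log10 q of 1.3 as black ticks, weaker peaks as grey ticks and RefSeq starts as arrowheads. The 3 distal PRDM3-only regions stand at 50.6, 364 and 565 kb.

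Gene lists for the lung and for PRDM3 biology were set against the share of all protein-coding genes with a region, 17.6%. The lists were chosen with earlier results of these data known and are described by counts with no test. Where a share for genes of like length is given, it is that of the length class of the list's median. Members of a list also fall in other classes. All but the airway and basal list stood above the 17.6% of all protein-coding genes. The Wilson 95% interval held 17.6% for 5 of the 10 lists, those of AT2, PRDM family, airway and basal, mesenchymal, and endothelial and blood cell genes.

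Among AT1 genes 9 of 24 had a region, or 37.5% (21.2% to 57.3%), and all 24 had another PRDM3 peak past the threshold. Median gene length in the list was 28.5 kb, and 16.4% of all genes of 10 to 50 kb had a region. Of those with a region, Lmo7 and Sema3a are over 200 kb long, a class with a share of 42.6%. Ahnak and Clic5 are of 50 to 200 kb (25.5%), and Bmp4 and Akap5 are under 10 kb (11.7%). Bmp4, which encodes a secreted BMP ligand, had a region with a fold enrichment of 5.43 from 7 fragments at 17.9 kb upstream of its start. Lmo7, which encodes a protein of cell junctions, held regions of 4.75 and 4.58, and Emp2, which encodes a membrane protein linked to caveolae, held one of 4.58. Ahnak, a large scaffold protein gene, had regions of 4.07 and 4.75, but these are the same 2 regions that count for the airway gene Scgb1a1. Clic5, which encodes an intracellular chloride channel protein, held regions of 4.24, 4.07 and 4.58, which lay 330, 1365 and 931 bases from a PRDM16 peak. Igfbp2, Akap5, Sema3a and Spock2 made up the rest, at 5 or 6 fragments. Ager and Aqp5, markers of mature AT1 cells, had none.

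Among AT2 genes 6 of 23 had one, or 26.1% (12.5% to 46.5%), with a median gene length of 13.3 kb, against the same 16.4%, and all 23 had another PRDM3 peak. Fabp5, which encodes a fatty acid carrier, had 2 regions of 4.07 and 3.98, which lay 221 and 350 bases from a PRDM16 peak. Scd1, which encodes the desaturase that makes oleate, had 2 of 4.07. One of these lay 431 bases from an H3K4me3 peak and the other 38 bases from a PRDM16 peak. Hc, the gene of complement component C5, had one of 4.05, Fasn, the fatty acid synthase gene, one of 3.93, and Nkx2-1 is also in this list. Sftpb, which encodes surfactant protein B, had one of 3.58 at 18.2 kb upstream of its start, 651 bases from a PRDM16 peak. The regions of Hc, Fasn and Nkx2-1 lay over 1 kb from a peak of any other library. All regions of the AT2 genes were at 5 fragments. Abca3 and Cd36 had none, nor did Sftpa1, Sftpc or Sftpd.

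Transcription factors of the lung epithelium had regions in 12 of 30 cases, or 40.0% (24.6% to 57.7%), and all 30 had another PRDM3 peak. Median gene length was 36.0 kb, against the same 16.4%. Of those with a region, Foxp1, Foxp2, Nfib and Tead1 are over 200 kb long, a class with a share of 42.6%. Foxp4, Grhl2, Wwtr1 and Yap1 are of 50 to 200 kb (25.5%), and Klf4, Foxa2 and Nkx2-1 are under 10 kb (11.7%). Foxp4, Foxp1 and Foxp2, forkhead repressors of the airway and alveolar epithelium, had 2, 3 and 2 regions. One of those in Foxp4 had a fold enrichment of 4.98 from 7 fragments. The Hippo pathway coactivator genes Wwtr1 (TAZ) and Yap1 had 3 and 1, and their DNA-binding partner Tead1 had 2, all at 5 or 6 fragments. Klf4, Nfib and Grhl2 also had regions. The region nearest Foxa2, 34.8 kb upstream of its start with 4.07 from 5 fragments, ended 2 bases from a PRDM16 peak. Cebpa and Cebpb had none.

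In the TGF-beta and BMP pathway 14 of 28 genes had a region, or 50.0% (32.6% to 67.4%), the highest share of the 10 lists, with a median gene length of 65.1 kb. The share for all genes of 50 to 200 kb was 25.5%. Among ligands, Bmp4 (5.43), Tgfb2 (4.18) and Tgfb3 (4.07) had regions, and Bmp2, Bmp7 and Tgfb1 had none. Receptors with regions were the type I receptor genes Tgfbr1 (4.33), Bmpr1a and Bmpr1b (4.07 each) and the type II receptor genes Acvr2a (4.75), Tgfbr2 (4.48) and Bmpr2 (4.07). The receptor genes Acvr1, Acvr1b and Tgfbr3 had none. The regions of Tgfbr1 and Tgfbr2 lay 3.16 and 7.69 kb upstream of their starts. Signal transducers were represented by Smad1 (4.07), while Smad2, Smad3, Smad4 and Smad5 had none. Of the BMP-responsive Id genes, Id4 had one of 3.93 and Id1, Id2 and Id3 had none. The inhibitory Smad6 and Smad7 had regions of 3.98 and 3.58, and the Smad corepressor gene Ski one of 4.24, while its relative Skil had none. The regions of Smad7, Tgfb3, Ski and Smad6 lay 2, 54, 169 and 284 bases from a peak of another library. Those of the other genes of this list lay over 1 kb from any such peak. PRDM3 is known to bind Smad3 and dampen TGF-beta signals in other cells. Of the 28 genes, 27 had another PRDM3 peak past the threshold. Bmp6, described above, was not in the list.

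Of 20 genes studied as PRDM3 targets in blood cells 9 had one, or 45.0% (25.8% to 65.8%), with a median gene length of 73.3 kb, against 25.5% of all genes of 50 to 200 kb, and all 20 had another PRDM3 peak. Runx1, which encodes a regulator of blood stem cells, had 3, with fold enrichments of 4.07, 3.89 and 5.43, the last from 7 fragments and 42 bases from a PRDM16 peak. Zbtb16, which encodes a zinc-finger repressor, held one of 4.58 from 6 fragments. Fos, Itga6, Setbp1 and Spi1 were among the rest. Gata2, a known target in blood stem cells, had none, nor did Meis1 or Erg. In the PRDM family and its corepressor partners 6 of 21 had one, or 28.6% (13.8% to 50.0%). Median gene length in this list was 76.5 kb, and the share for all genes of 50 to 200 kb was 25.5%. Another PRDM3 peak past the threshold was near 20 of the 21. Besides Mecom and Prdm16, those with a region were Prdm1, Prdm2, Prdm10 and the DNA methyltransferase gene Dnmt3a. Ctbp1 and Ctbp2 had none.

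Lists of other cell types were counted in the same way. Neuronal genes, with a median length of 476 kb, had regions in 8 of 20 cases (40.0%, 21.9% to 61.3%), against 42.6% of all genes of 200 kb or longer. Among them Syt1, which encodes a calcium sensor of synaptic vesicles, had 5.23 from 7 fragments. Only 7 of these 20 had another PRDM3 peak. The next 3 lists were near the 17.6% of all genes. Mesenchymal genes had regions in 4 of 20 cases (interval of the share 8.07% to 41.6%), which were Pdgfrb, Meox2, Wnt2 and Tbx5. Endothelial and blood cell genes had them in 4 of 19, or 21.1% (8.51% to 43.3%), which were Kdr, Tyrobp, Pecam1 and Emcn. Airway and basal genes had them in 3 of 22, or 13.6% (4.75% to 33.3%), which were Muc5ac, Scgb1a1 and Dnah5. A region within 50 kb of a gene may lie nearer to another. An end of another protein-coding gene was nearer for the regions of Ahnak, Akap5, Hc, Fasn, Yap1, Ski, Tgfb3, Muc5ac, Scgb1a1, Pdgfrb, Wnt2 and Tyrobp, and for 1 region each of Prdm16, Runx1 and Spi1.

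**Figure D5:**
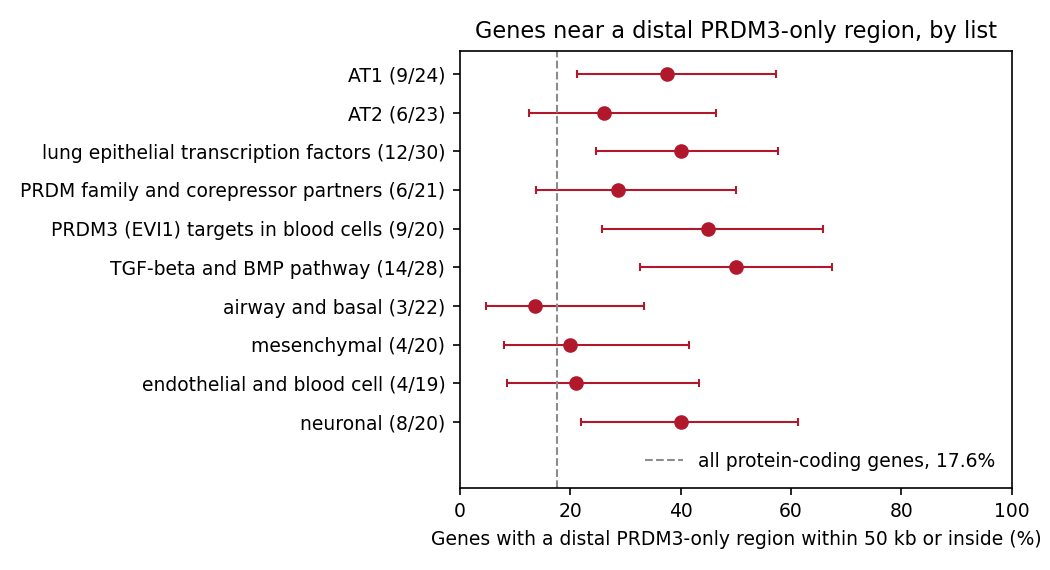
Share of the genes of 10 lists (rows, with genes having a region over genes in the list) that had a distal PRDM3-only region inside or within 50 kb (horizontal axis, percent), with Wilson 95% intervals and the share of all protein-coding genes as a dashed line at 17.6%. The TGF-beta and BMP list stands at 50.0% and the airway and basal list at 13.6%.

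The labelled cells were checked on H3K4me3 within 1 kb of a gene end. All 6 epithelial genes (Epcam, Cdh1, Cldn4, Krt8, Krt18 and Nkx2-1) carried it in all 3 libraries, and none of 4 immune genes did in any. It was also present in all 3 libraries at 1 of 4 endothelial genes (Kdr), at 1 of 4 mesenchymal genes (Col1a2) and at the erythroid gene Klf1. The part of other cells in the distal PRDM3-only regions was not tested.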

How the data were processed

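Binding was measured by CUT&RUN in 9 libraries analysed here of 12 samples. The submitters' processing notes name Trimmomatic, Bowtie2, MACS2, HOMER and mm10 but no version or setting. The sources used here do not say whether peaks were called against a control. For each library analysed the authors deposited a list of called peaks. As deposited, its fold enrichment is a ratio of signal to background at the summit, its p and q values are −log10 values made by the authors' peak caller, and its score, also made by the authors' peak caller, was not used. These values were used only within a list. Libraries were sequenced to at least 15 M reads, per the labels, and their depth is otherwise unknown.

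Regions followed the rule in the opening, with at least 1 shared base counting as overlap. Fragment numbers were fitted from the deposited values after these had been seen, with a tolerance of 0.0001 in −log10 p. Genes were RefSeq genes of GRCm38.p6. The table has no strand or exons, so distances run from region midpoints to either gene end, and "inside" does not tell exon from intron. Transcript starts came from RefSeq promoter windows where a gene had one. The planned motif search in 200-base summit windows needed a genome and was not run. Promoter windows were searched in its place, a choice made after seeing the data.

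With 1 PRDM3 library and regions chosen on its values, nothing was tested. The members and lists were chosen with earlier results of these data known. Named genes were Nkx2-1, Prdm16 and Mecom, for each of the 15 strongest regions the gene whose end was nearest if that was under 50 kb away, the 10 genes with most regions (12 tied, taken by summed fold enrichment), and in each list up to 4 genes with the strongest region and up to 2, alphabetically, without one. Other genes were named after their values were seen, and a few that the rule or a list holds are not reported here. Overlap, gap and fragment steps were tested on simulated data. Alternatives changed the q threshold, the overlap, the libraries that remove a peak, the gene link and the genes used. The work was done in Python 3.11.15 with pandas 2.3.3, numpy 2.4.6, matplotlib 3.10.9 and scipy 1.17.1.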

Additional observations from a re-analysis of the deposited data

Results flagged for a closer look

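The rule kept to chromosomes 1 to 19, and PRDM3 peaks that met its other terms were present outside them. On X, 41 of 291 PRDM3 peaks past the threshold overlapped no peak of another library, with a median fold enrichment of 4.07 and a highest of 5.43. On Y, 13 of 28 did, with a median of 4.07 and a highest of 6.32. No control library was analysed here to set beside these, and the share on Y was not tested against the others.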

How the results depend on the processing

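Of 81 values recomputed under an alternative, 49 stayed close and 32 moved, where close means within 1.5 times for a number of regions, within the Wilson 95% interval for a share and within its 95% interval for the median fold enrichment. None was a test, so no call could be lost, and the cause of a shift was not tested beyond what each alternative's construction gives. The number of regions was 1757 at a −log10 q of 2 or more, 124 at 3 or more, 685 with 6 or more fragments (added after seeing the data), 1713 when peaks within 1 kb also counted as shared and 18563 with no q threshold. It was 2696 with X and Y, 3401 when only peaks past the threshold removed a region and 3153 when sharing needed 50% of the shorter peak. Median fold enrichment was 5.43 at a −log10 q of 3 or more and 2.71 with no threshold. The share inside a gene was 54.0% at 3 or more, 53.4% with 6 or more fragments, 58.3% with all annotated genes, 46.5% with no threshold and 47.9% with the 1 kb rule. The share with a gene end within 50 kb was 62.1%, 67.3%, 85.2%, 59.6% and 61.1% in the same order, and with links of 10 and 100 kb it was 29.5% and 77.5%. The share of genes with a region was 11.8% at 2 or more, 0.818% at 3 or more, 15.0% with all annotated genes, 66.8% with no threshold, 11.2% with the 1 kb rule, 21.5% when only peaks past the threshold removed a region, 20.9% under the rule of 50% of the shorter peak, and 8.31% and 27.4% with links of 10 and 100 kb.

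Leaving out each of the 8 other libraries in turn gave 2642 to 3383 regions, a median fold enrichment of 4.07 each time, 49.5% to 50.6% inside a gene, 64.1% to 66.9% with a gene end within 50 kb and 17.6% to 22.4% of genes with a region. No paired analysis was possible because there was 1 PRDM3 library and no test between groups. The regions rest on few fragments, with 74.1% at 5 in the only PRDM3 library analysed here. The part of sequencing depth in this was not tested.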

Other observations

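A few distal PRDM3-only regions lay near microRNA genes. Of 1005 RefSeq hairpins, 11 were within 5 kb of 9 regions. Hairpins near the other PRDM3 peaks were not counted, so this number is a description. Mir7029 on chromosome 5 lay inside a region with a fold enrichment of 4.07 from 5 fragments. Mir34b and Mir34c, a pair known for its abundance in multiciliated cells, lay 990 and 1525 bases from a region with 3.93 from 5 fragments. Mir126a, which is known from endothelial cells, lay 3346 bases from a region with 4.07 from 5 fragments. Mir135a-1, Mir3062, Mir6392 and Mir1900 were at regions of 5 fragments as well, and Mir8099-2 at one of 6.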
